A study of Mus musculus with 5 samples.

Results

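The genes described here are 8 sugar-binding lectin receptors of mouse myeloid cells: the CD209 paralogs Cd209a, Cd209b, Cd209d, Cd209e, Cd209f and Cd209g, and the galactose-type lectins Mgl2 and Clec10a. They were chosen by symbol and are 8 of the 27998 genes in the tables. The choice was made with their pattern in these cells already known, so the levels are a description and carry no test. The libraries came from live CD45+ cells sorted from dermis of C57BL/6 mice and counted in 10x Genomics droplets from the 3′ ends of transcripts. There were 5 libraries and 1 for each label, so no difference between labels has a replicate check. P50_Depil5D is labelled for depilation and 5 days, without saying whether day 50 was the age at depilation or at collection, and P45, P50, P63 and P80 are postnatal days during telogen, the resting phase of the hair cycle. No source used here gives the sex of the mice or says whether skin of several animals was pooled. The study's title concerns macrophage-derived oncostatin M and hair growth, and says nothing of these lectins.

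CD209 proteins and the MGL proteins are type II membrane receptors whose extracellular end is a calcium-dependent sugar-binding domain. CD209 (DC-SIGN) receptors bind mannose- and fucose-rich glycans on microbes and host proteins, while MGL receptors bind galactose and N-acetylgalactosamine. Mice carry several paralogs in place of the few human CD209 genes: Cd209a is called mouse DC-SIGN, Cd209b encodes SIGNR1, Cd209d SIGNR3 and Cd209e SIGNR4. SIGNR1 is known from marginal zone and other resident macrophages, where it takes up bacterial polysaccharide. Mgl2 encodes CD301b, used as a marker of a conventional dendritic cell subset of the mouse dermis, and Clec10a encodes MGL1 (CD301a), known from both macrophages and dendritic cells.

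In the mm10 build and GENCODE vM21, the 6 CD209 genes lie on chromosome 8. Cd209a (ENSMUSG00000031494), at chr8:3743397-3748984 on the minus strand, is followed by Cd209e at chr8:3847965-3854309, Cd209d at chr8:3871824-3878555, Cd209b at chr8:3917655-3926844 and Cd209f at chr8:4102787-4105835, all on the minus strand, and by Cd209g at chr8:4134098-4137707 on the plus strand. Mgl2 at chr11:70130329-70137550 and Clec10a at chr11:70156197-70170834 are neighbours on chromosome 11, both on the plus strand. The counts come from 3′ ends, so similar ends could mix the paralogs. None of the 451 windows of 50 bases in the last 500 bases of each member's transcript occurred in another member, and the longest run that Cd209f and Cd209g shared there was 29 bases. Whether reads of 2 paralogs were mixed was not tested further.

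Promoters were taken from RefSeq (GRCm38.p6, 250 bases before to 50 after the start), which held 7 of the 8 members. They are shown because, by where most of their counts lay, 5 paralogs fell into 2 groups. Cd209a, Cd209d and Cd209e were carried mainly by dendritic cell-like clusters, and Cd209f and Cd209g mainly by 1 macrophage-like cluster. The division is not clean, since Cd209d was also high in that macrophage-like cluster. Of 4 motifs searched on both strands, the ETS-IRF composite, GGAA and GAAA with any 2 bases between them, matched in Cd209a, Cd209e and Cd209d, as TTTCTCTTCC on the gene's strand, beginning 9, 85 and 70 bases before the start. It occurred in 2.72% of 32851 promoters. The AP-1 motif TGACTCA matched in Cd209f and Cd209g, as TGAGTCA, beginning 83 and 97 bases before the start, and occurred in 5.20% of promoters. The PU.1 motif GAGGAAGT (3.20%) and the MAF recognition motif TGCTGAC (4.67%) matched in no member's window. None of the 4 motifs matched in Mgl2, which was also carried mainly by dendritic cell-like clusters. None matched in Cd209b or in Cd209c, a paralog outside the 8 members. These matches are letters in a window and not binding sites. The start is that of RefSeq, which for 2 genes lies inside the gene as placed by GENCODE. The Cd209g stretch below lies within chr8:4134098-4137707, and the Cd209c promoter, chr8:3946814-3947113, within chr8:3940222-3954746. Distances to the start, and the lack of a match in Cd209c, therefore depend on the annotation used. The lines below run 5′ to 3′ on the gene's strand, with the match in capitals. The Cd209b line has none and is the stretch most like the Cd209d line without gaps.
Cd209a, chr8:3748964-3749053 (minus): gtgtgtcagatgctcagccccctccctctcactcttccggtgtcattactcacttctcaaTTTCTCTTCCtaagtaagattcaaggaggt
Cd209e, chr8:3854342-3854431 (minus): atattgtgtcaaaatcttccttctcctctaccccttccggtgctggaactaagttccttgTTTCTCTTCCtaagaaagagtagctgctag
Cd209d, chr8:3878540-3878629 (minus): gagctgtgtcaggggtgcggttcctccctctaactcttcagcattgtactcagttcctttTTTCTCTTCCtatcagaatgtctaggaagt
Cd209f, chr8:4105821-4105907 (minus): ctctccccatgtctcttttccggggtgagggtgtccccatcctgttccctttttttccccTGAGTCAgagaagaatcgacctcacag
Cd209g, chr8:4134579-4134665 (plus): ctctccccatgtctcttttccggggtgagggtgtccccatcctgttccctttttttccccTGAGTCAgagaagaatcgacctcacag
Cd209b, chr8:3926856-3926945 (minus): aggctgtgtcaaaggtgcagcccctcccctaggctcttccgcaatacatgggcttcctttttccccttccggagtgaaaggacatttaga
The Cd209f and Cd209g windows are identical. Whole promoters were compared at the best single offset, without gaps. For Cd209f and Cd209g, 238 of 286 compared bases were the same, with an unbroken run of 180. The other pairs of CD209 promoters had 31.8% to 43.8% of compared bases in common and runs of 7 to 17. Inserted or lost bases lower such a share, so these values do not show that the other promoters are unrelated.

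After filtering, 6141 cells remained: 1485 in P50_Depil5D, 2139 in P45, 1458 in P50, 574 in P63 and 485 in P80. The deposited matrices held 1032621 to 7491878 UMIs per library, with medians of 1249 to 2543 per cell. P50_Depil5D, P50, P63 and P80 shared 134 to 191 cell barcodes in each pair, and P45 shared at most 7 with any of them. Pseudogene UMIs, as a share of these and ribosomal protein UMIs, had medians from 0.963% to 7.61% by library. Cells under 0.5 times their library's median made up 6.92% to 36.5% of a library. Levels and ratios of the pooled dendritic cell-like and macrophage-like populations were also computed without these cells and without shared barcodes. Clusters were made without the 8 members, Cd209c or haemoglobin genes, and named from marker genes. They gave 1995 dendritic cell-like and 393 macrophage-like cells. The labelled sort is for CD45, but 1072 cells (17.5%) were keratinocyte-like, where Ptprc, the CD45 gene, was at 27.9 counts per 1000000 UMIs (CPM), against 301 in dendritic cell-like, 274 in macrophage-like and 464 in T cell-like cells.

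Cd209a, Cd209d, Mgl2 and Cd209e were carried mainly by dendritic cell-like cells, and Cd209f and Cd209g almost wholly by macrophage-like cells. The dendritic cell-like populations held 82.3% of all Cd209a UMIs, 77.3% of Cd209d, 80.02% of Mgl2 and 80.1% of Cd209e UMIs. They held 3.54% of the 367 Cd209f UMIs and 4.12% of the 170 Cd209g UMIs, while macrophage-like cells held 92.9% and 91.8% of these. Clec10a and Cd209b were divided, with 53.8% and 53.4% in dendritic cell-like and 36.2% and 38.5% in macrophage-like cells. These shares follow cell numbers too, since dendritic cell-like cells outnumbered macrophage-like cells.

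Per UMI sequenced, Cd209a stood at 820.4 CPM (95% interval 796–845) in dendritic cell-like and 448 CPM (405–493) in macrophage-like cells. Intervals throughout are exact and cover counting error only. Mgl2 stood at 1210 CPM (1180–1240) in dendritic cell-like and 821 CPM (763–882) in macrophage-like cells. Cd209d had 782 CPM (758–807) in dendritic cell-like and 683 CPM (631–739) in macrophage-like cells. Cd209e had 186 CPM (175–199) in dendritic cell-like and 99.0 CPM (79.6–122) in macrophage-like cells. With all libraries pooled, these 4 genes were therefore higher in dendritic cell-like cells, each by less than 2-fold. At resolution 2, 755 macrophage-like cells held 28.0% of Cd209a, 28.4% of Cd209d, 28.3% of Mgl2 and 29.9% of Cd209e UMIs. The 1638 dendritic cell-like cells held 61.6%, 60.3%, 61.1% and 57.5% there. Levels per UMI were not computed at that setting, so the order is given for the main clusters only. For Cd209d this order held in P45 and P50 only. It had 808 CPM in dendritic cell-like and 855 CPM in macrophage-like cells of P50_Depil5D, and 735 and 1500 CPM in those of P80. In P63, without cells of low pseudogene share, it had 646 and 1159 CPM. Mgl2 had 1349 and 1360 CPM in P80. The other 4 members ran the opposite way in the pooled libraries. Clec10a had 189 CPM (178–201) in dendritic cell-like and 735 CPM (680–793) in macrophage-like cells, and Cd209b 41.0 CPM (35.7–46.9) in dendritic cell-like and 171 CPM (145–200) in macrophage-like cells. Cd209f had 2.48 CPM (1.32–4.24) in dendritic cell-like and 375 CPM (336–417) in macrophage-like cells, and Cd209g 1.34 CPM (0.54–2.75) in dendritic cell-like and 172 CPM (146–201) in macrophage-like cells. The log2 ratio, with 10 CPM added to each level, was -4.95 for Cd209f, -4.00 for Cd209g, -1.90 for Clec10a and -1.82 for Cd209b.

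With 2-fold as the limit, 0 of 8 members were higher in dendritic cell-like cells, where 0.893% of 12770 genes passed, and 4 of 8 were higher in macrophage-like cells, where 4.51% passed. The members were chosen knowing where they are high, so nothing is read from these counts. The markers that name the populations did not separate them fully. All 10 macrophage markers were lower in dendritic cell-like cells, with summed levels of 379 to 852 CPM by library, against 10828 to 17392 CPM in macrophage-like cells. They ranged from Folr2, a folate receptor gene of resident macrophages (2.29 CPM in dendritic cell-like and 353 CPM in macrophage-like cells), to the scavenger receptor gene Cd163 (160.1 CPM in dendritic cell-like and 421 CPM in macrophage-like cells). Of 11 dendritic cell markers, 10 were higher in dendritic cell-like cells. Without the 4 MHC class II genes, the summed level of the other 7 was 1075 to 1207 CPM by library in dendritic cell-like and 188 to 676 CPM in macrophage-like cells. Flt3, a growth factor receptor gene, was at 44.8 CPM in dendritic cell-like and 13.2 CPM in macrophage-like cells, while the metabolic gene Kmo, at 29.6 CPM in dendritic cell-like and 29.7 CPM in macrophage-like cells, did not separate them. The part of dendritic cells or their RNA in the macrophage-like levels of Cd209a, Cd209e and Mgl2 was not tested. Without shared barcodes, the levels moved by little: Cd209a was at 811 CPM in dendritic cell-like and 436 CPM in macrophage-like cells, and Cd209f at 2.61 CPM in dendritic cell-like and 384 CPM in macrophage-like cells. Without the cells of low pseudogene share, Cd209a was at 833 CPM in dendritic cell-like and 485 CPM in macrophage-like cells, and Cd209f at 2.62 CPM in dendritic cell-like and 374 CPM in macrophage-like cells.

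**Figure D1:**
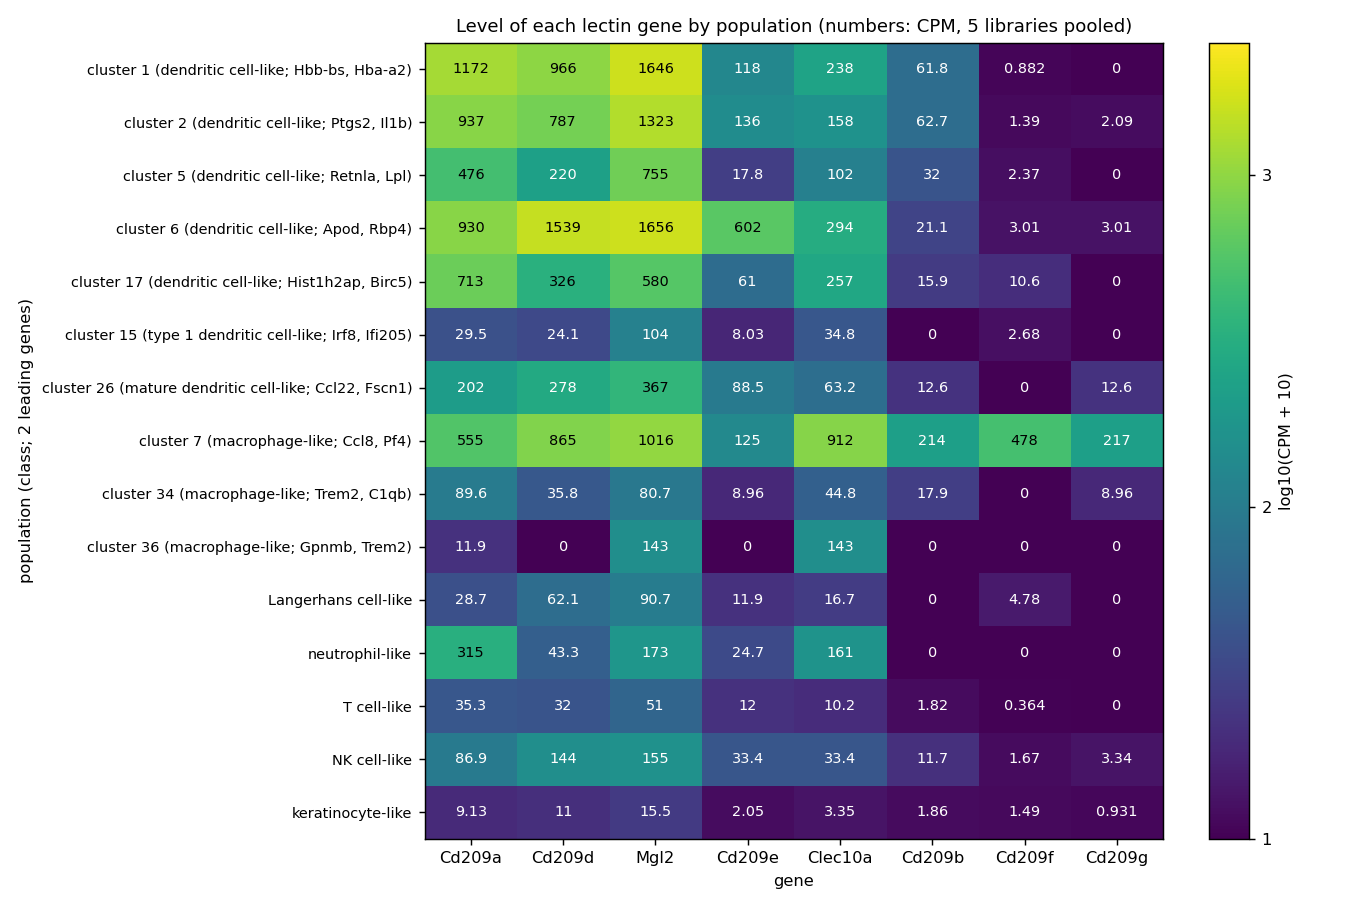
Level of each lectin gene (columns) in the dendritic cell-like and macrophage-like clusters and in other populations (rows), as CPM in all libraries pooled, with colour on a log10(CPM + 10) scale. Cd209f and Cd209g are high in macrophage-like cluster 7 (478 and 217 CPM) and at 12.6 CPM or less in every dendritic cell-like cluster, and Cd209e is highest in cluster 6 (602 CPM).

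UMIs of these genes were also found in cells of other lineages, and the part of free RNA and doublets in them was not tested. In T cell-like cells, the level was 4.30% of the dendritic cell-like level for Cd209a, 4.21% for Mgl2, 4.09% for Cd209d, 6.44% for Cd209e and 5.39% for Clec10a. In keratinocyte-like cells it was 1.10% to 1.77% for these 5 genes. These shares are over pooled libraries, and the libraries differed widely. Cd209a in T cell-like cells was at 2.04 CPM in P50_Depil5D and 113 CPM in P45, the lowest and highest library. Mgl2 was at 5.10 and 159 CPM and Cd209d at 2.04 and 105 CPM in the same 2 libraries. Dendritic cell-like cells of P45 had 835 CPM of Cd209a, 1180 CPM of Mgl2 and 836 CPM of Cd209d. Cd209f and Cd209g, at 2.48 and 1.34 CPM in dendritic cell-like cells, were at 0.364 and 0 CPM in T cell-like and 1.49 and 0.931 CPM in keratinocyte-like cells. Their intervals in dendritic cell-like cells reach the keratinocyte-like level but lie above the T cell-like level. Whether these few counts are background was not tested. Langerhans cell-like cells, the resident antigen-presenting cells of the epidermis, had 28.7 CPM of Cd209a and 90.7 CPM of Mgl2, and no UMI of Cd209b or Cd209g in 92 cells. A neutrophil-like cluster of 64 cells had 315 CPM of Cd209a (235–415) and 161 CPM of Clec10a (105–236), but 43.3 CPM of Cd209d. It also had 39438 CPM of the 4 MHC class II genes together, against 49714 CPM in macrophage-like cluster 7 and 89868 CPM in dendritic cell-like cluster 2. Its lectin counts are therefore not assigned to neutrophils, and whether other cells were mixed in was not tested.

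Within the dendritic cell-like populations the genes did not share 1 profile. Cluster 1 (563 cells, led by haemoglobin transcripts and Ear2) had the highest Cd209a level, 1172 CPM, with 966 CPM of Cd209d, 1646 CPM of Mgl2 and 118 CPM of Cd209e. It was named dendritic cell-like from MHC class II genes, H2-DMb2, Napsa and Ifi30. The dendritic cell markers Flt3, Itgax, Kmo and Irf4 were not among its raised markers. Cluster 2 (512 cells, led by the inflammatory genes Ptgs2 and Il1b) had 937 CPM of Cd209a, 787 CPM of Cd209d and 1323 CPM of Mgl2. Cluster 6 (324 cells, led by Apod, Rbp4 and Pi16) had 930.4 CPM of Cd209a but 1539 CPM of Cd209d and 602 CPM of Cd209e (555–652), the highest level of these genes in any cluster. Mgl2 did not separate clusters 1 and 6, at 1646 and 1656 CPM. Cluster 5 (339 cells, led by Retnla, Lpl and Ccl17) was lower for each of them, with 476 CPM of Cd209a, 220.3 CPM of Cd209d, 755 CPM of Mgl2 and 17.8 CPM of Cd209e. The cycling cluster 17 (107 cells) had 713 CPM of Cd209a and 326 CPM of Cd209d.

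The type 1 dendritic cell-like cluster 15 (123 cells, led by Irf8 and Xcr1) was low for every member, with 29.5 CPM of Cd209a, 24.1 CPM of Cd209d, 104 CPM of Mgl2 and 0 UMIs of Cd209b and Cd209g. Its Cd209a and Cd209d levels are no higher than those of T cell-like cells (35.3 and 32.0 CPM). The mature dendritic cell-like cluster 26 (27 cells, led by Ccl22, Fscn1 and Ccr7) lay between, at 202 CPM of Cd209a, 278 CPM of Cd209d and 367 CPM of Mgl2. For Cd209e the order among dendritic cell-like and macrophage-like clusters, from the top, was cluster 6, then clusters 2 at 136 CPM (117–156), 7 at 125 CPM and 1 at 118 CPM, and the intervals of these 3 overlap.

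Among macrophage-like cells, cluster 7 (317 cells, led by Ccl8, Pf4, Ccl7, Cbr2 and Folr2) carried all 8 members, with 912 CPM of Clec10a, 865 CPM of Cd209d, 1016 CPM of Mgl2, 555 CPM of Cd209a, 478 CPM of Cd209f, 217 CPM of Cd209g, 214 CPM of Cd209b and 125 CPM of Cd209e. The 2 clusters led by Trem2, a lipid receptor gene, or by Gpnmb and Trem2, were low. Cluster 34 (50 cells, 48 of them in P45) had 89.6 CPM of Cd209a, 44.8 CPM of Clec10a and no Cd209f UMI. Of its 50 cells, 32 were of low pseudogene share, and its levels were not computed without them. Cluster 36 (26 cells) had 143 CPM of Mgl2 and of Clec10a (73.9–250 each), and no UMI of any CD209 paralog other than 1 of Cd209a. With counts this small, levels up to 44.0 CPM would not have been seen in cluster 36. Of the further paralog Cd209c, which was not a member, 39.9 CPM was found in dendritic cell-like and 29.7 CPM in macrophage-like cells.

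Unnamed clusters held 3.54% of Cd209a and 4.34% of Mgl2 UMIs. In cluster 20 (76 cells), which had both T cell markers and a dendritic level of MHC class II, Cd209a was at 597 CPM, Cd209d at 944 CPM and Cd209e at 216 CPM. Whether these were doublets was not tested.

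Library by library, the division between populations held for Cd209f and Cd209g. In macrophage-like cells Cd209f was at 207 CPM in P50_Depil5D, 311 CPM in P45, 633 CPM in P50, 292 CPM in P63 and 422 CPM in P80, against 0 to 3.77 CPM in the dendritic cell-like cells of the same libraries. Cd209g was at 69.0 CPM in P50_Depil5D, 147 CPM in P45, 309 CPM in P50, 58.4 CPM in P63 and 141 CPM in P80 among macrophage-like cells, against 0 to 2.21 CPM in dendritic cell-like cells. Both genes were higher in macrophage-like cells in every library, although P50_Depil5D, P63 and P80 held 31, 24 and 20 of them. The intervals of Cd209g overlap in P63, at 12.1 to 171 CPM in macrophage-like and 0 to 13.9 CPM in dendritic cell-like cells.

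Cd209e in dendritic cell-like cells was at 116 CPM in P50_Depil5D, 237 CPM in P45, 109 CPM in P50, 174 CPM in P63 and 154 CPM in P80. P45 was highest, and P50_Depil5D and P50 lowest with overlapping intervals. Cluster 6 was 6.25% of dendritic cell-like cells in P50_Depil5D, 25.6% in P45, 7.54% in P50, 10.7% in P63 and 4.31% in P80. Its share was highest in P45, as was Cd209e, but P80 had the lowest share and not the lowest Cd209e level. Within cluster 6, Cd209e was at 657 CPM in P50_Depil5D, 583 CPM in P45, 709 CPM in P50 and 785 CPM in P63, so P45 was the lowest of these 4. P80 had 5 cells of this cluster and no Cd209e UMI, which allows up to 679 CPM.

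Cd209a in dendritic cell-like cells was at 709 CPM in P50_Depil5D, 835 CPM in P45, 885 CPM in P50, 635 CPM in P63 and 1129 CPM in P80. Cd209d was at 808 CPM in P50_Depil5D, 836 CPM in P45, 624 CPM in P50, 673 CPM in P63 and 735 CPM in P80. Mgl2 was at 1249 CPM in P50_Depil5D, 1180 CPM in P45, 1149 CPM in P50, 1517 CPM in P63 and 1349 CPM in P80. These 3 genes stayed within 2-fold across the libraries, with no common order: P80 was highest for Cd209a, P45 for Cd209d and P63 for Mgl2.

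**Figure D2:**
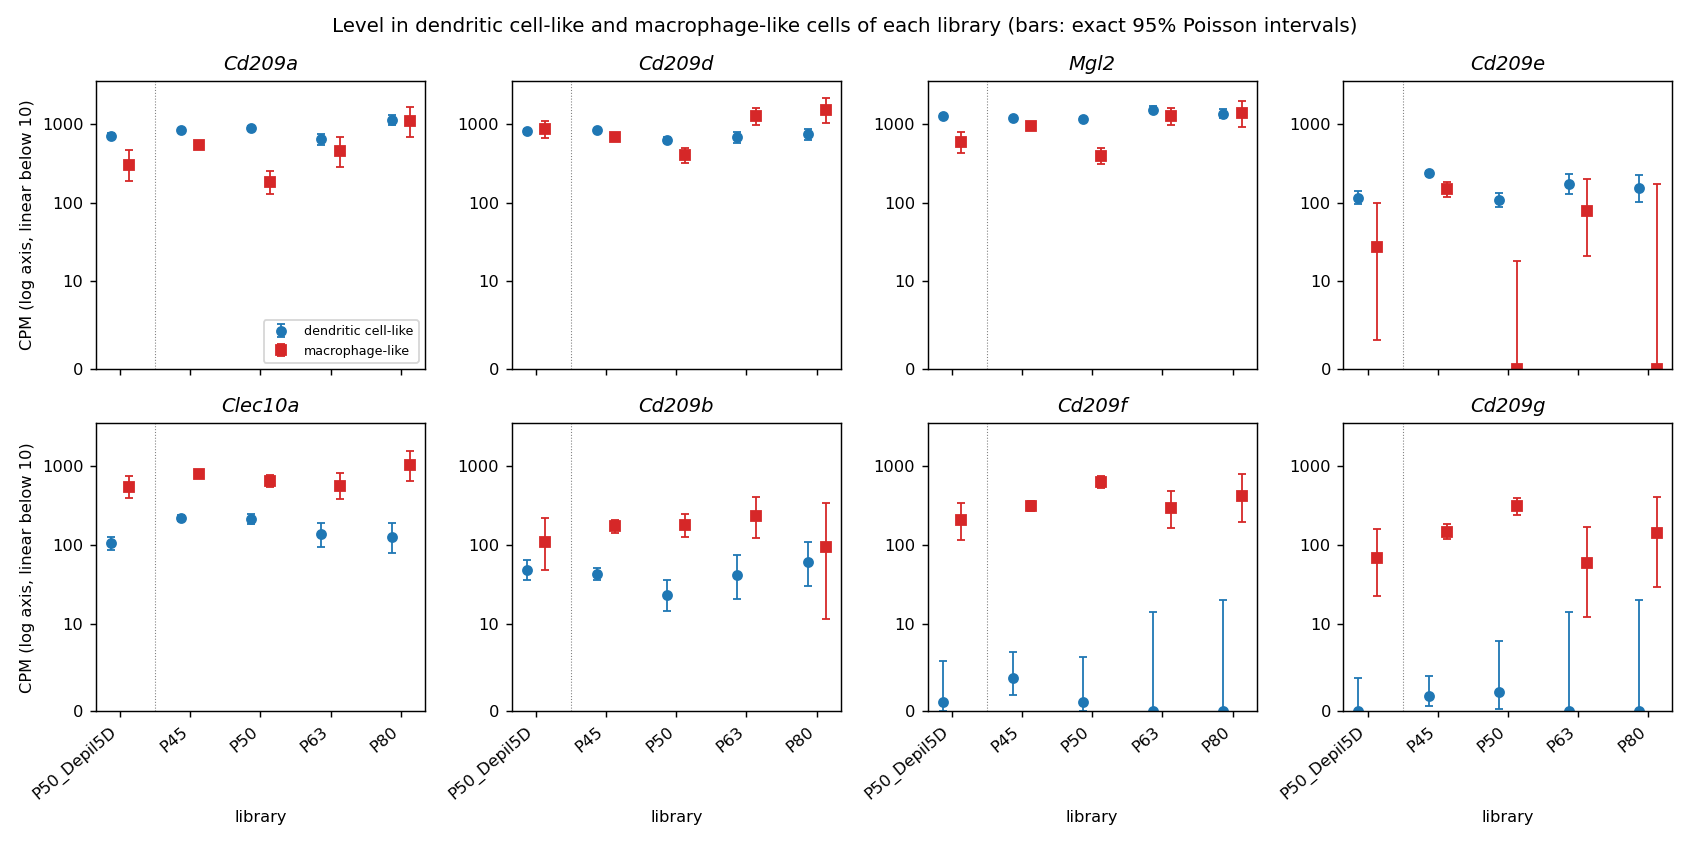
Level of each lectin gene in dendritic cell-like (circles) and macrophage-like cells (squares) of each library, in CPM on a log axis that is linear below 10, with bars for exact 95% Poisson intervals. Cd209f and Cd209g in macrophage-like cells (58.4 to 633 CPM) lie above dendritic cell-like cells (0 to 3.77 CPM) in all 5 libraries, with overlapping intervals for Cd209g in P63, while Cd209d and Mgl2 overlap or change order.

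In macrophage-like cells the spread between libraries was wider, as was the counting error. Mgl2 was at 593 CPM in P50_Depil5D, 941 CPM in P45, 394 CPM in P50, 1266 CPM in P63 and 1360 CPM in P80. Cd209a was at 303 CPM in P50_Depil5D, 536 CPM in P45, 184 CPM in P50, 448 CPM in P63 and 1078 CPM in P80. P50 was lowest for both, and also for Cd209d, where it had 399 CPM against 680.0 to 1500 CPM in the other libraries. Clec10a was at 552 CPM in P50_Depil5D, 792 CPM in P45, 653 CPM in P50, 565 CPM in P63 and 1031 CPM in P80. The lowest Clec10a level in macrophage-like cells was above the highest in dendritic cell-like cells, 219 CPM in P45.

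P50_Depil5D was set against P50, the library of the same labelled day. In dendritic cell-like cells Clec10a was lower, at 105 CPM in P50_Depil5D and 212 CPM in P50 (ratio 0.494, 0.385–0.632). Its log2 ratio with 10 CPM added was -0.95. Within clusters it was 0.479 (0.320–0.711) in cluster 1, 0.465 (0.277–0.764) in cluster 2 and 0.432 (0.216–0.815) in cluster 6. It was nearer to 1 in cluster 5 (0.792, 0.273–2.06) and in cluster 17 (0.927, 0.394–2.02), which had 7 and 10 UMIs in P50_Depil5D, and their intervals include both 1 and the pooled ratio. Cd209d was higher in P50_Depil5D (ratio 1.29, 1.16–1.44), as was Cd209b, at 48.3 CPM in P50_Depil5D and 23.2 CPM in P50 (ratio 2.08, 1.22–3.67). Mgl2 had a ratio of 1.09 (0.9996–1.18) and Cd209e of 1.06 (0.80–1.41). Within clusters, Cd209e had 0.926 (0.624–1.37) in cluster 6 and 0.985 in cluster 2, but 2.77 (1.18–7.51) in cluster 1, where it rested on 28 UMIs in P50_Depil5D and 7 in P50. Counted at 2-fold on the scale with 10 CPM added, 0 of the 6 members with at least 3 UMIs passed, where 1.02% of 9895 genes did (0.152% higher and 0.869% lower). Cd209b had a log2 ratio of 0.81 there, and of 1.04, past 2-fold, with TMM scaling factors, which move the log2 ratios of this comparison by 0.26.

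Cd209a was lower in P50_Depil5D over all dendritic cell-like cells, with a ratio of 0.801 (0.723–0.888), but the clusters differed. The ratio was 1.05 in cluster 1, 0.521 (0.435–0.621) in cluster 2 and 1.77 in cluster 5. Cluster 1 made up 41.3% of dendritic cell-like cells in P50_Depil5D and 33.8% in P50. The pooled value therefore does not describe each cluster.

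**Figure D3:**
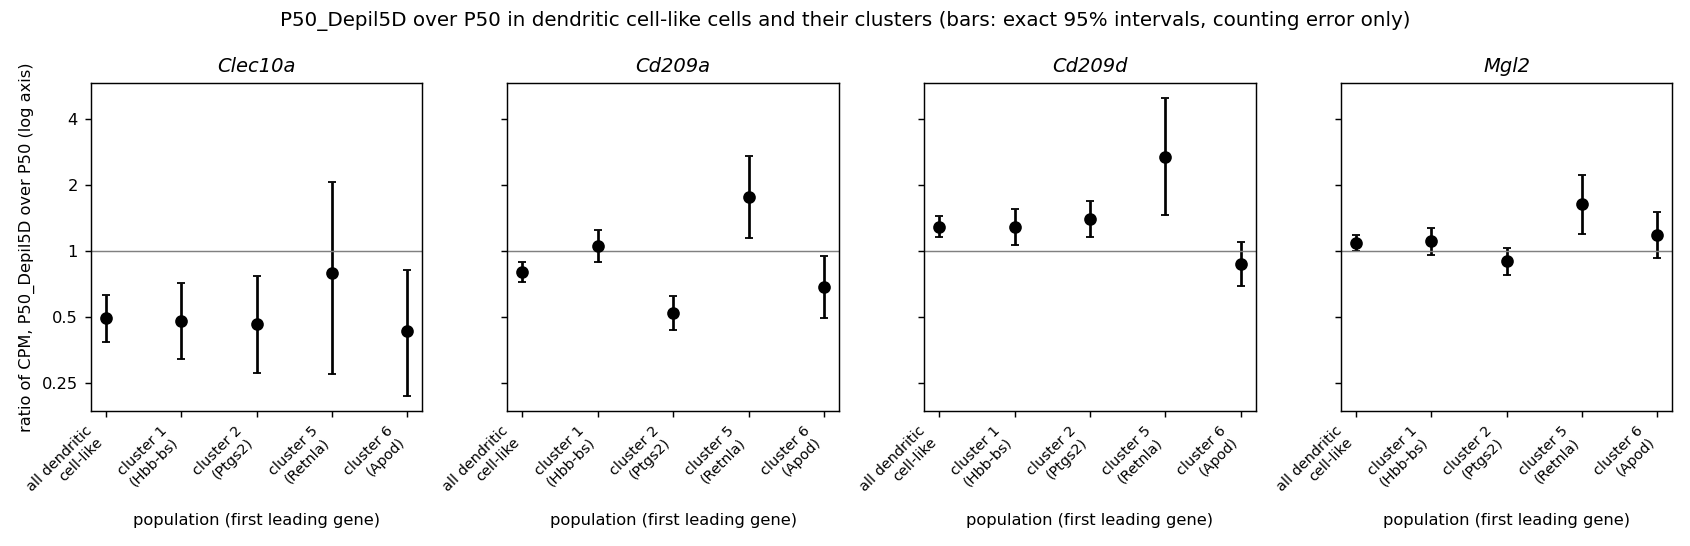
Ratio of CPM, P50_Depil5D over P50, for Clec10a, Cd209a, Cd209d and Mgl2 in all dendritic cell-like cells and in 4 of their clusters, on a log axis with exact 95% intervals for counting error. Clec10a lies below 1 in each (0.432 to 0.792), and Cd209a lies on both sides of 1.

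In macrophage-like cells of P50_Depil5D and P50 (31 and 94 cells), Cd209f had 207 CPM in P50_Depil5D and 633 CPM in P50 (ratio 0.327, 0.178–0.560), and Cd209g 69.0 CPM in P50_Depil5D and 309 CPM in P50 (ratio 0.223, 0.070–0.549). Within cluster 7 the ratios were 0.255 (0.139–0.438) and 0.174 (0.055–0.429). Cd209d ran the other way, at 855 CPM in P50_Depil5D and 399 CPM in P50 (ratio 2.14, 1.51–3.03), but its ratio within cluster 7, 1.68 (1.18–2.37), was below 2-fold. At 2-fold, 1 of 7 members tested was higher and 2 were lower, where 31.3% of 6305 genes passed (9.04% higher and 22.3% lower), so the members' share is near that of all genes. With TMM factors, the log2 ratio of Cd209d fell just short of 2-fold (0.99).

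P80 was set against P45, the latest and earliest libraries. In dendritic cell-like cells, 0 of 8 members passed 2-fold, where 6.5% of 11591 genes did (3.2% higher and 3.3% lower). Cd209a was higher in P80 (ratio 1.35, 1.17–1.56), but within cluster 1 its ratio was 0.987. Cluster 1 made up 66.4% of dendritic cell-like cells in P80 and 14.5% in P45. Clec10a was lower in P80 (ratio 0.576, 0.363–0.872), also within cluster 1 (0.407, 0.237–0.662). Cd209e was lower over all dendritic cell-like cells (ratio 0.648, 0.427–0.944) but had a ratio of 1.34 (0.81–2.15) within cluster 1, and cluster 6 made up 4.31% of the cells in P80 and 25.6% in P45. The Cd209e log2 ratio, -0.60, became -1.09, past 2-fold, when cells whose barcode occurred in another library were left out, which kept 68 of the 116 cells of P80. In macrophage-like cells (20 in P80 and 224 in P45), Cd209d passed 2-fold upward, at 1500 CPM in P80 and 680.0 CPM in P45, with a log2 ratio of 1.13. It was 0.88 without shared barcodes, 0.90 without cells of low pseudogene share and 0.39 with TMM factors, so the call does not hold under these. Cd209e passed downward, with 0 UMIs in P80 and 84 in P45. The 0 in P80 allows up to 173 CPM, above the 149 CPM of P45, so no fold is given. As 55% of 9049 genes passed 2-fold there (15.7% higher and 39.3% lower), these 2 of 8 members do not stand apart.

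For co-detection, each cell was thinned to 1000 UMIs, so that deeper cells do not hold more genes for that reason. This left out 117 shallower dendritic cell-like cells, of which 46 were from P50, 40 from P80, 29 from P50_Depil5D and 2 from P63. It also left out 33 macrophage-like cells, of which 17 were from P50, 14 from P80 and 2 from P50_Depil5D. Macrophage-like co-detection therefore holds only 6 of the 20 cells of P80. Of the 1878 dendritic cell-like cells kept, 19.4% had no member, 50.1% had 2 or 3, and 7.61% had 4 or more. Of 360 macrophage-like cells, 21.1% had 4 or more. By contrast 94.6% of T cell-like and 95.4% of keratinocyte-like cells had none.

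Cd209a and Mgl2 were often found in the same dendritic cell-like cell. An Mgl2 UMI was present in 577 of 822 cells with Cd209a (70.2%, Clopper-Pearson interval 66.9–73.3) and in 51.5% (48.5–54.6) of the cells without it. By library the shares with and without Cd209a were 73.2% and 50.4% in P50_Depil5D, 67.9% and 52.0% in P45, 68.5% and 47.9% in P50, 75.6% and 65.2% in P63, and 82.0% and 38.5% in P80. The share was higher in cells with Cd209a in all 5 libraries. Before thinning it was 86.2%. In T cell-like cells, Mgl2 was found in 7 of 30 cells with Cd209a and in 1.96% of the others.

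Within clusters the differences were smaller. In cluster 1, Mgl2 was found in 77.7% of cells with Cd209a (72.3–82.5) and 67.7% of cells without it (61.1–73.8). With and without Cd209a, the shares were 70.2% and 65.0% in cluster 2, and 73.1% and 68.1% in cluster 6. The intervals overlap in all 3 clusters. For Cd209d and Mgl2 the difference was larger than the intervals in cluster 1 as well. Mgl2 was in 74.4% of dendritic cell-like cells with Cd209d and 49.6% of those without it, and in 82.6% and 64.2% of such cells of cluster 1. Cd209e was met together with Cd209d, which was in 63.9% of cells with Cd209e and 37.7% of cells without it. Within cluster 6 these shares were 70.4% and 64.5%. Mgl2 was in 83.3% of cluster 6 cells with Cd209e and 64.0% of those without it. Clec10a did not follow Mgl2 in dendritic cell-like cells, since Mgl2 was in 61.5% of cells with Clec10a and 59.4% of cells without it. Within cluster 1 these shares were 59.3% and 76.1%.

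**Figure D4:**
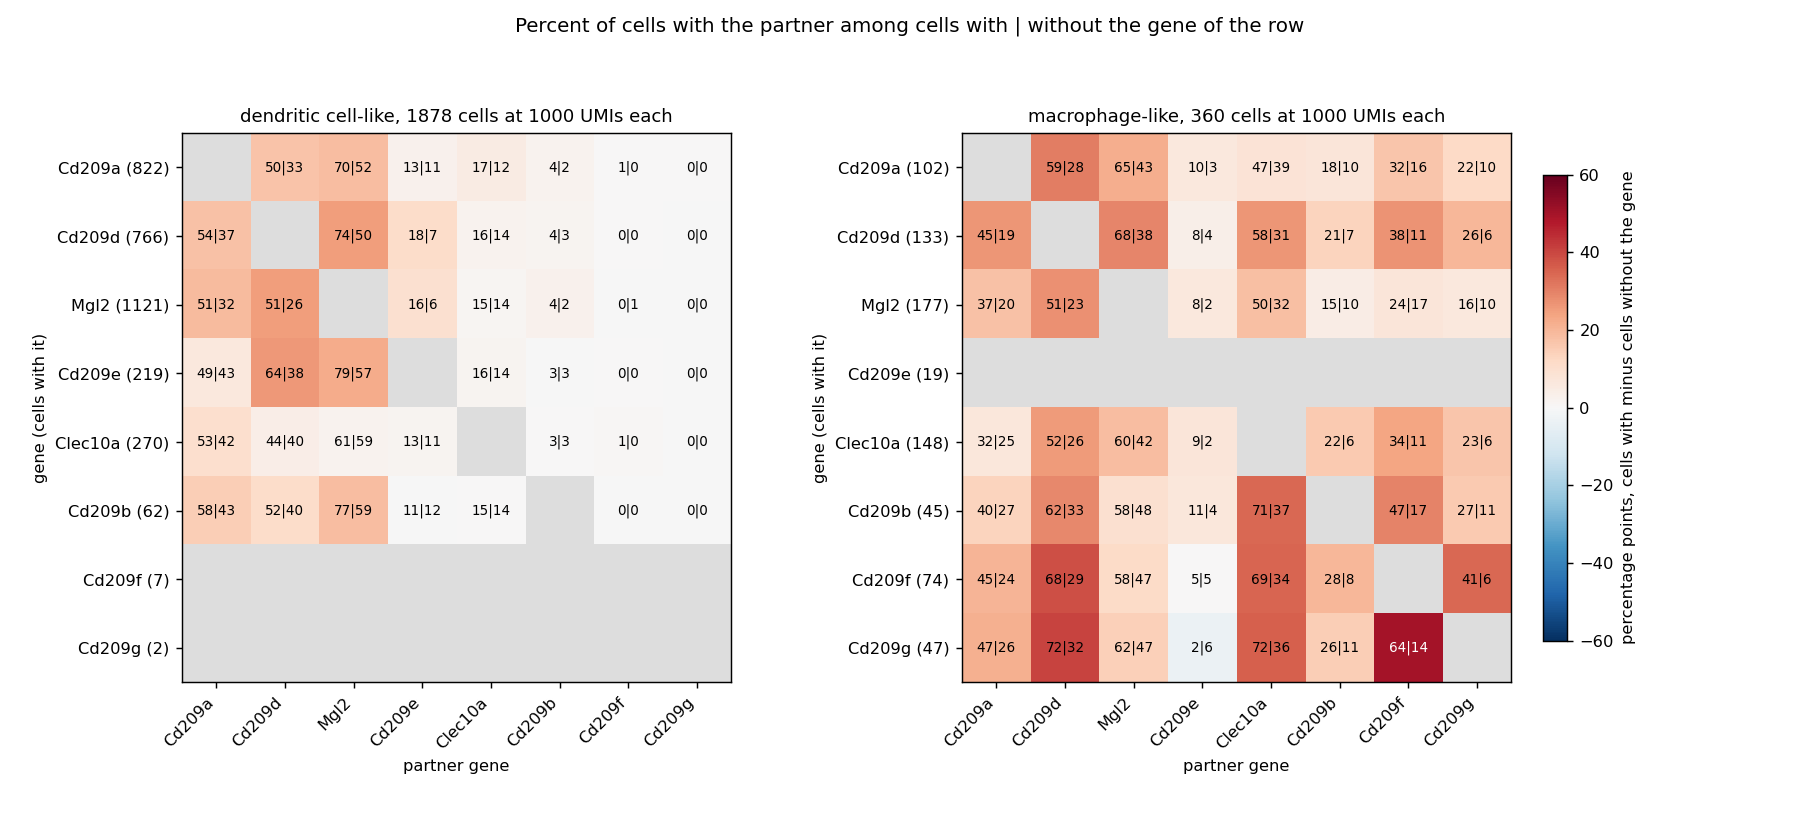
Percent of cells with the partner gene (columns) among cells with and without the gene of the row, in dendritic cell-like (left) and macrophage-like cells (right) thinned to 1000 UMIs, with colour for the difference in percentage points. Rows with under 20 cells are grey. The darkest square is Cd209f among macrophage-like cells with Cd209g, 63.8% against 14.1% in cells without it.

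Cd209f and Cd209g were often found in the same macrophage-like cells. Cd209f was in 63.8% of macrophage-like cells with Cd209g and 14.1% of cells without it. Cd209g was in 40.5% of cells with Cd209f and 5.94% of cells without it. Within cluster 7, Cd209f was in 65.2% of cells with Cd209g and 18.4% of cells without it, and Cd209g in 40.5% of cells with Cd209f and 7.58% of cells without it. Within that cluster Cd209d was in 67.6% of cells with Cd209f and 38.9% of those without it. Clec10a was in 68.9% of cells with Cd209f and 44.5% of those without it, and Cd209b in 28.4% of cells with Cd209f and 10.9% of those without it. Mgl2 was an exception, found in 58.1% of cells with Cd209f and 61.1% of cells without it.

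Of the 317 cells of cluster 7, 127 had at least 1 UMI of Cd209f or Cd209g and 190 had none. These groups were formed from the cells' own counts, and a cell without a UMI may still express the genes, so the values are a description. Their median depths were 2083 and 1965.5 UMIs. Cells with Cd209f or Cd209g had 342 CPM of Cd209b and the others 118 CPM (ratio 2.89, 2.04–4.16). Cd209d had 1233 CPM with and 586 CPM without (2.10, 1.78–2.48), Clec10a 1197 CPM with and 697 CPM without (1.72, 1.47–2.01), and Cd209a 716 CPM with and 433 CPM without (1.65, 1.35–2.03). Mgl2 had 950.0 CPM with and 1066 CPM without (0.891, 0.765–1.04), and Cd209e a ratio of 0.897 (0.571–1.40), so these 2 were not separated.

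Other genes divided along the same line. Cells with Cd209f or Cd209g had more of the folate receptor gene Folr2 (ratio 2.64, 2.05–3.42), the haemoglobin scavenger receptor gene Cd163 (1.93) and the mannose receptor gene Mrc1 (1.53). They had less of the 4 MHC class II genes Cd74, H2-Aa, H2-Ab1 and H2-Eb1 together, 36545 CPM with and 59682 CPM without (ratio 0.612, 0.599–0.626). The monocyte chemokine receptor gene Ccr2 had a ratio of 0.385 and Trem2 of 0.298, while the complement gene C1qa did not differ beyond its interval (0.997, 0.901–1.10). By library, the ratio was above 1 in all 5 for Cd209b (1.26 to 6.39), Cd209d (1.42 to 4.75) and Cd209a (1.32 to 5.97). For MHC class II it was 0.402 to 0.995, the highest being near 1. Clec10a had 0.399 in P50_Depil5D and 1.62 to 2.20 in the other 4. Macrophage-like cells with Cd209f or Cd209g numbered 79 in P45 and 25 in P50, but 8 in each of P50_Depil5D, P63 and P80. Cd209b had 2 UMIs in cluster 7 of P80. The ratios of these 3 libraries therefore rest on few cells, and they do not establish agreement between libraries.

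**Figure D5:**
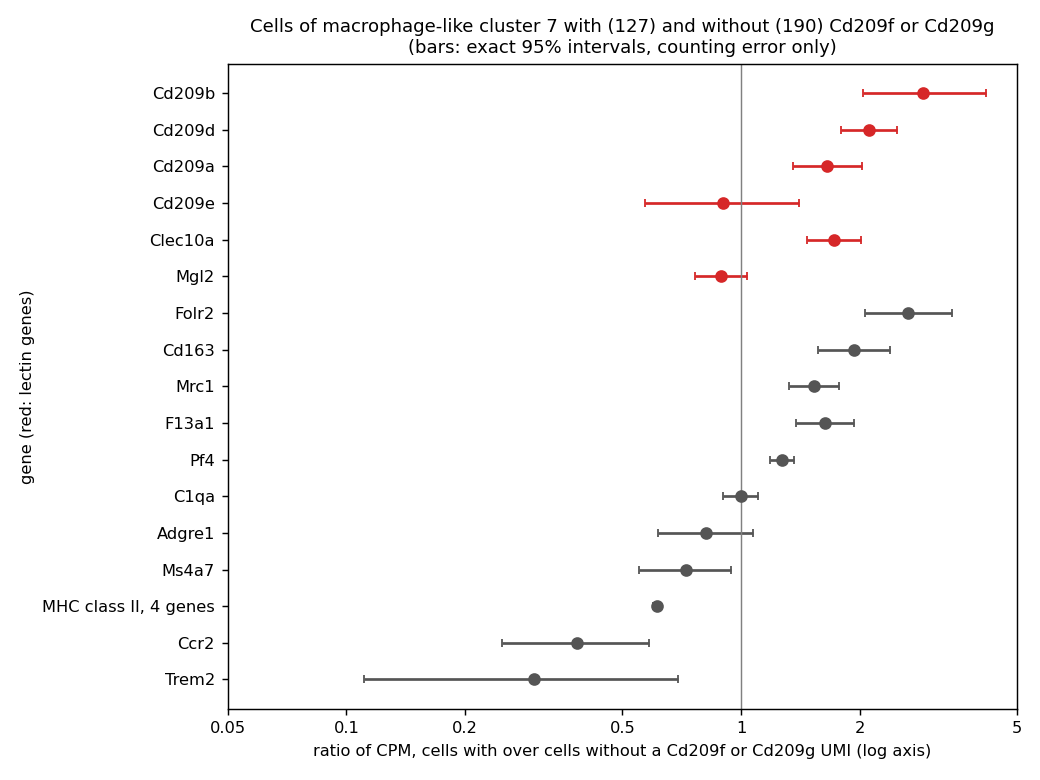
Ratio of CPM in cluster 7 cells with (127) over cells without (190) a UMI of Cd209f or Cd209g, for lectin genes (red) and for macrophage, monocyte and MHC class II genes (grey), on a log axis with exact 95% intervals for counting error. Cd209b (2.89) and Folr2 (2.64) lie highest, and Ccr2 (0.385) and Trem2 (0.298) lowest.

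Other lectin receptors were compared with the members. Of 22 other sugar-binding C-type lectin receptors listed, 21 had a row under that symbol and 17 had enough UMIs. The dendritic cell-like cells were more than 2-fold higher for 1 of the 17 (0.893% of all genes), Cd207 (langerin, the Langerhans cell lectin; 51.0 CPM in dendritic cell-like and 6.60 CPM in macrophage-like cells). Macrophage-like cells were higher for 5 (4.51% of all genes): Mrc1 (log2 ratio -2.34), Clec4d (-1.85), Colec12 (-1.32), Clec4a1 (-1.19) and Clec5a (-1.02). The median log2 ratio of the list was -0.59, against -0.12 over all genes and -0.82 over the 8 members. Of 16 genes tied to Mgl2-positive skin dendritic cells and type 2 signals, against the same shares of all genes, 2 were higher in dendritic cell-like cells, Ccl17 (log2 ratio 3.55), a chemokine gene, and Flt3 (1.24), and 3 in macrophage-like cells, Tslp (-3.55), Sirpa (-1.36) and Il4ra (-1.11). Their median was 0.09. The transcription factor gene Irf4, required for this dendritic cell subset in mice, had 49.0 CPM in dendritic cell-like and 35.2 CPM in macrophage-like cells.

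For P50_Depil5D over P50 in dendritic cell-like cells, 1 of 16 other lectins passed 2-fold, Cd207 (1.64), and 1 of 16 genes of the second list, Ccl17 (-2.75), where 1.02% of all genes passed. In P80 over P45, where 6.5% of all genes passed, 2 of 16 lectins and 2 of 16 genes of the second list did. The lectins Cd207 (-1.18) and Clec12a (-1.02) and the chemokine gene Ccl17 (-1.43) passed downward, and the transcription factor gene Zeb2 (1.06) upward. In macrophage-like cells, 6 of 13 lectins were lower in P50_Depil5D than in P50, where 22.3% of all genes were. In P80 over P45, 8 of 15 were lower and 1 was higher, where 39.3% of all genes were lower and 15.7% higher. For the second list, 2 of 12 were higher and 3 lower in P50_Depil5D than in P50, where 9.04% of all genes were higher, and 2 of 16 higher and 5 lower in P80 than in P45.

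Over the 32 clusters with at least 20 cells, the genes whose level was most like that of each member were looked up among 6644 genes. The clusters share libraries and differ in depth, so Pearson's r is given as a description. The gene most like Cd209a was Mgl2 (r = 0.95), followed by Cd209d (0.94) and Wfdc17 (0.92). For Cd209e it was Cd209d (0.94), followed by Cd209a (0.90) and Apod (0.87). For Cd209g it was Cd209f (0.91), and for Cd209f the chemokine genes Ccl12 (0.87) and Ccl8 (0.83). Cd209b came closest to Cd163 (0.85) and Mrc1 (0.85), while Clec10a came closest to Pirb (0.94), Wfdc17 (0.93) and Mrc1 (0.92).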

How the data were processed

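The deposited files held whole-number UMI counts per gene and cell for each of 5 libraries. Per the submitters' processing notes, the build was mm10 and Seurat was used, with no version or role. No aligner, counting tool, annotation or cell-calling rule was given in the sources used here. Of 6223 barcodes, 61 with under 200 genes or over 10% mitochondrial UMIs were removed. Scrublet (scanpy 1.11.5) called 21 doublets, or 0.341%, which were removed. With so low a share the caller was not relied on, and doublets may remain. Log values of counts per 10000 UMIs of a cell were used for clustering. The 2000 most variable genes, without the 8 members, Cd209c and haemoglobin genes, gave 30 principal components, on which a graph with 15 neighbours per cell was clustered by the Leiden method (igraph 0.11.9, resolution 1, best of 50 random starts). A cluster was named "like" a class where at least 3 fixed markers were raised by 1 on the log2 scale at 50 CPM or more and its leading genes did not mark another class. The rules for ties, for splitting mixed clusters, for MHC class II in T cell-like clusters and for low pseudogene share were chosen after seeing the data. Type 1 and mature dendritic cell-like clusters were pooled with the other dendritic cell-like clusters.

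The members and gene lists were chosen with earlier results of these data known. UMIs were summed per population and library and divided by the population's UMIs (CPM). Levels have exact Poisson intervals, shares Clopper-Pearson intervals and ratios exact conditional intervals, all at 95%. Log2 ratios have 10 CPM added to each level, and genes with under 3 UMIs in the groups compared were left out of counts at 2-fold. With 1 library per label no test was made. Cells were thinned at random to 1000 UMIs for co-detection. TMM factors came from edgeR 4.0.16 (R 4.3.3). The summing and interval steps were tested on simulated data. Coordinates came from GENCODE vM21, which held 27722 of the 27998 gene identifiers. Genes named are the members and Cd209c in every population, the 5 leading genes of clusters holding at least 10% of a member's UMIs, genes among the 5 most like each member (1 is not reported here), and, of the 2 lists, those past 2-fold. Irf4, the markers set beside the levels, the other populations and the genes of the Cd209f and Cd209g division were added beyond this rule.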

Additional observations from a re-analysis of the deposited data

How the results depend on the processing

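Of 139 alternatives over 10 results, 105 stayed within the counting interval, 30 moved beyond it and 4 changed sign. The share of UMIs in dendritic cell-like cells (82.3% for Cd209a, 80.02% for Mgl2, 80.1% for Cd209e) and in macrophage-like cells (36.2% for Clec10a, 92.9% for Cd209f) depended most on how cells were grouped. At resolution 2, where macrophage-like cells grew to 755, it was 61.6% for Cd209a, 61.1% for Mgl2, 57.5% for Cd209e and 47.8% for Clec10a, and the Cd209a log2 ratio of P80 over P45 was 0.68. The larger share of Clec10a and of Cd209b then lay in macrophage-like cells, which also held 28.0% of Cd209a and 28.3% of Mgl2 UMIs. With the members among the genes clustered, the dendritic cell-like share was 64.2% for Cd209a, 59.9% for Mgl2 and 26.7% for Cd209e. Unnamed clusters then held 60.5% of Cd209e, and the Mgl2 log2 ratio of P80 over P45 was 0.41. With populations set by each cell's markers, the dendritic cell-like share was 86.5% for Cd209a, 84.5% for Mgl2 and 85.0% for Cd209e. The macrophage-like share was 33.3% for Clec10a and 88.3% for Cd209f. Without cells of low pseudogene share Clec10a was at 32.8%, and without doublet scores over 0.2 Mgl2 was at 81.0%. Leaving out 1 library at a time gave 80.5% to 88.7% for Cd209a, 77.6% to 85.6% for Mgl2, 78.5% to 88.0% for Cd209e, 90.3% to 95.4% for Cd209f, 34.9% to 37.1% for Clec10a, and 69.4% to 72.8% for Mgl2 in cells with Cd209a. That last share, 70.2% at 1000 UMIs, was 48.9% at 500 UMIs, 86.2% without thinning and 42.4% where 2 UMIs were needed. With TMM factors the log2 ratio of Cd209a was 0.22 for P80 over P45 and -0.061 for P50_Depil5D over P50, and that of Mgl2 was -0.019 and 0.38. Within cluster 1, an alternative added after the data were seen, Cd209a had -0.018 and 0.074 in these comparisons and Mgl2 had -0.027 for P80 over P45. The cause of these changes was not tested.

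TMM factors shift log2 ratios in macrophage-like cells by -0.75 for P80 over P45 and by -0.098 for P50_Depil5D over P50, and in dendritic cell-like cells by -0.21 and 0.26. Without the minimum of 3 UMIs, 5.41% and 0.828% of genes passed 2-fold in dendritic cell-like cells for these comparisons, and 43.2% and 27.4% in macrophage-like cells. The 20 to 31 macrophage-like cells of P50_Depil5D, P63 and P80 limit what can be seen there. No paired analysis was possible because each label has 1 library.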

Other observations

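With libraries pooled, NK cell-like cells (272 cells) had 86.9 CPM of Cd209a, 144 CPM of Cd209d and 155 CPM of Mgl2, above the T cell-like levels of 35.3, 32.0 and 51.0 CPM. The libraries were unequally mixed, with 145 of the 272 cells in P45. In P45 alone, Cd209a was at 117 CPM in NK cell-like and 113 CPM in T cell-like cells, and Cd209d at 189 and 105 CPM. In P50_Depil5D, Cd209a was at 0 and 2.04 CPM, Cd209d at 29.5 and 2.04 CPM and Mgl2 at 0 and 5.10 CPM. The part of library mix in the pooled difference was not tested. An unnamed cluster of 49 cells led by the interferon-induced genes Isg15, Cxcl9 and Rsad2, with C1q genes raised, had 679 CPM of Mgl2 (544–836), 193 CPM of Cd209a and no UMI of Cd209f or Cd209g.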
